A study of Rattus norvegicus with 372 samples.

Results

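Heat shock proteins are chaperones that bind unfolded proteins, and 10 genes were chosen by name for this description: Hspa1b, Hspa8, Hsph1, Dnajb1, Dnaja1, Bag3, Hsp90aa1, Hspb1, Hspd1 and Hspe1. A gene was taken from the count tables when the name of a probe column matched one of these symbols regardless of case, and the counts of probes to one gene were added. In the whole transcriptome (WT) assay 9 of the 10 genes had a probe among 20946 gene symbols, and 8 of them had a mean of at least 10 counts over the wells, as did 10191 symbols in all. The expression of Hsph1 was not analysed here, and Hspa1b was almost without counts. The group was named cytosolic, but Hspd1 and Hspe1 encode the mitochondrial chaperonin Hsp60 and its partner Hsp10, so totals are given with and without this pair.

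The cells were primary hepatocytes of male Wistar rats, kept in collagen sandwich on 96-well plates and measured by TempO-Seq, in which pairs of detector oligos ligate on their target RNA and are counted by sequencing. They were treated for 24 h with 14 chemicals, each at a high and a low concentration, in culture medium with 0.5% DMSO. The high and low concentrations were 10000 and 400 µM for acetaminophen, caffeine, isoniazid and valproic acid (labelled Valproic), 450 and 18 µM for chloramphenicol, 400 and 16 µM for diclofenac, 2 and 0.08 µM for doxorubicin, and 300 and 12 µM for indomethacin. They were 15 and 0.6 µM for ketoconazole, 2000 and 80 µM for naproxen, 4000 and 160 µM for ranitidine, 60 and 2.4 µM for simvastatin, 100 and 4 µM for sulfasalazine, and 200 and 8 µM for WY14643, an agonist of peroxisome proliferator-activated receptors. Each of the 2 batches came from 1 rat, with its own libraries and sequencing run, and held 3 wells per treatment, which are technical replicates of that rat. Vehicle wells (DMSO without chemical) and wells of culture medium alone numbered 3 each in batch 1 and 6 each in batch 2, which made 90 and 96 wells. The rats are the only biological replicates, so the p-values measure mainly the spread between wells. In batch 1 all vehicle wells lay on a single plate, and 6 chemicals (acetaminophen, chloramphenicol, indomethacin, ketoconazole, sulfasalazine and WY14643) lay on another plate without vehicle, so for these a plate difference and a treatment difference cannot be told apart in batch 1.

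Chaperones of the Hsp70 family hold unfolded stretches of protein in cycles of ATP hydrolysis, J-domain proteins deliver the substrate and start the hydrolysis, and nucleotide exchange factors let the substrate go. Hsp90 takes over many signalling proteins late in folding, and small heat shock proteins hold aggregating proteins until Hsp70 can refold them. Heat shock factor 1 (HSF1) activates many of these genes when unfolded proteins accumulate, by binding DNA elements built of alternating inverted copies of a 5-base unit. In hepatocytes the same system meets proteins damaged by reactive drug metabolites. Unfolded proteins in the mitochondria raise Hspd1 and Hspe1 by a response of their own.

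Total counts per well ran from 2709504 to 8948654 in batch 1 (median 6210462) and from 2289425 to 8975207 in batch 2 (median 7220136). The hepatocyte identity was checked with markers: the summed level of 9 hepatocyte genes, among them Alb and Apoa1, was 29186 to 38049 CPM (counts per 1000000 counts of the well) in the vehicle wells, whereas the summed levels of the Kupffer cell, cholangiocyte, stellate cell and endothelial marker lists were at most 80.6 CPM in any well. At 400 µM diclofenac the summed hepatocyte level was 5976 to 8072 CPM and all 9 hepatocyte markers were lower than in vehicle. All 9 were also lower at 10000 µM valproic acid, 8 at ranitidine, 7 at isoniazid and 6 each at acetaminophen, ketoconazole and naproxen, and at most 5 at the other high concentrations. Some rose instead, 5 each with caffeine and simvastatin, 4 with WY14643, 3 each with indomethacin and sulfasalazine and at most 2 elsewhere. Of the 4 tested Kupffer cell markers 3 were lower at 8 high concentrations (acetaminophen, caffeine, diclofenac, doxorubicin, indomethacin, ketoconazole, ranitidine and valproic acid, with list medians of -0.80 to -4.31), and the remaining one was higher at 5 of these (acetaminophen, diclofenac, ketoconazole, ranitidine and valproic acid). The 1 tested stellate cell marker was lower at 8 high concentrations (-0.55 to -3.48). These were those of acetaminophen, caffeine, chloramphenicol, diclofenac, doxorubicin, indomethacin, naproxen and ranitidine. Both tested cholangiocyte markers were lower with diclofenac (median -2.43) and with chloramphenicol (-0.88). The part of these markers in the results below was not tested. CPM are relative to each well's total, while fold changes were scaled by TMM, which centres the bulk of the genes. With library totals alone the median L2FC (log2 fold change) of all genes moved from within 0.05 of 0 to -0.43 for acetaminophen, -0.24 for WY14643 and 0.27 for valproic acid at the high concentration.

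The sequences upstream of the members are shown because HSF1 binds runs of such units. RefSeq (rat assembly GRCr8) gave the 250 bases before the start site for 8 of the 10 members, not for Hspa1b and Hsp90aa1. Both strands were searched for GAANNTTC and TTCNNGAA, each made of 2 inverted units and reading alike on both strands. All 8 members held either motif, against 13.5% of 33469 promoters of the same length. The window of Hspa1a, a close relative of Hspa1b outside the list, held 0 matches of either. Only the 250 bases before the annotated start site were searched, so this does not show that Hspa1a lacks such elements. A run of 3 alternating units, in which these motifs overlap, stood in 4 of the 8 (Hspa8, Hsph1, Hspd1 and Hspe1), against 0.663% of all. Such a match describes letters and not a bound site. Each line below gives 30 bases, 5′ to 3′ on the gene's strand, with the matching units in capitals.
Hspa8, chr8:50080292-50080321, plus strand: ggcgagcgtGAAAGTTCCAGAAcgctgcgg
Hspa8, chr8:50080450-50080479, plus strand: gcggaacccTTCTGGAAGGTTCtaagacag
Hsph1, chr12:10427323-10427352, plus strand: tgccgcagaTTCTGGAAAGTTCtcctcagt
Dnajb1, chr19:41431142-41431171, minus strand: cgacgcatcgggaggggcgGAAGGTTCtgg
Dnaja1, chr5:60638212-60638241, plus strand: aaaagcctctaGAAGATTCtacaaggatcg
Bag3, chr1:192533317-192533346, plus strand: ggatgggaccaGAAGTTTCtagccggccag
Hspb1, chr12:26432412-26432441, minus strand: cttcaactagaGAAGTTTCcagatgggggc
Hspb1, chr12:26432392-26432421, minus strand: agatgggggcaGAACCTTCctggccctgcc
Hspd1, chr9:64084256-64084285, minus strand: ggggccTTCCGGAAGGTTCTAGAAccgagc
Hspe1, chr9:64084256-64084285, plus strand: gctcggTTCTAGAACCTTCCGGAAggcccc

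Hspd1 and Hspe1 lie head to head. Their start sites are 290 bases apart, 211 bases belong to both promoters, and the 18-base run of 4 units shown above is one and the same stretch read on opposite strands. It ends 48 bases before the Hspe1 start site. The promoter of Hspe1 is given in full because it is the shared region of the mitochondrial pair, again with the run in capitals.
Hspe1, chr9:64084077-64084326, plus strand: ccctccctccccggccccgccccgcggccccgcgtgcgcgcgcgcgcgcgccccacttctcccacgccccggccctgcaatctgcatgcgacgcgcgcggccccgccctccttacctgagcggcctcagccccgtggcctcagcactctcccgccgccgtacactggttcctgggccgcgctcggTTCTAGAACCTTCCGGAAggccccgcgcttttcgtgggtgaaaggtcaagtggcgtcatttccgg

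High concentrations raised the heat shock genes far more often than they lowered them. Of the 112 pairs of a tested member and a high concentration, 60 were higher and 8 lower than vehicle (edgeR's quasi-likelihood test, Benjamini-Hochberg adjusted p under 0.05 over all genes). Over all genes, 25.4% of such pairs were higher and 25.5% lower. When each batch also had to pass alone, 43 pairs were higher and 2 lower, against 14.3% and 14.0% of pairs over all genes. The treated wells lay above all vehicle wells in both batches for 37 of the 112 pairs and below them for 3, against 13.0% and 17.3% of pairs over all genes. Added up, the 9 members with a probe took 0.675% ± 0.080 of all counts in the vehicle wells of batch 1 (SD, n = 3) and 0.620% ± 0.058 in those of batch 2 (n = 6), against 1.25% ± 0.024 and 1.41% ± 0.22 with diclofenac and 0.981% ± 0.16 and 1.37% ± 0.053 with acetaminophen (n = 3 each). Hspa8 alone made up 77.3% ± 2.5 and 74.5% ± 1.7 of that sum in the vehicle wells of the batches. Isoniazid (0.596% and 0.552%), simvastatin (0.625% and 0.535%) and sulfasalazine (0.646% and 0.487%) had means below those of vehicle in both batches. The median L2FC of the pairs was 0.37. An L2FC of at least 1 was reached by 18 pairs and one of -1 or less by 0, against 6.30% and 9.30% of pairs over all genes. Without the mitochondrial pair, 43 of 84 pairs were higher and 7 lower. At least 1 member rose at 13 of the 14 high concentrations, which leaves 60 µM simvastatin. Since 9.07% to 38.8% of all genes were higher at each of them, at least 1 rise among 8 genes says little about this set. In these bulk wells fewer cells of a type and less RNA per cell cannot be told apart.

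**Figure D1:**
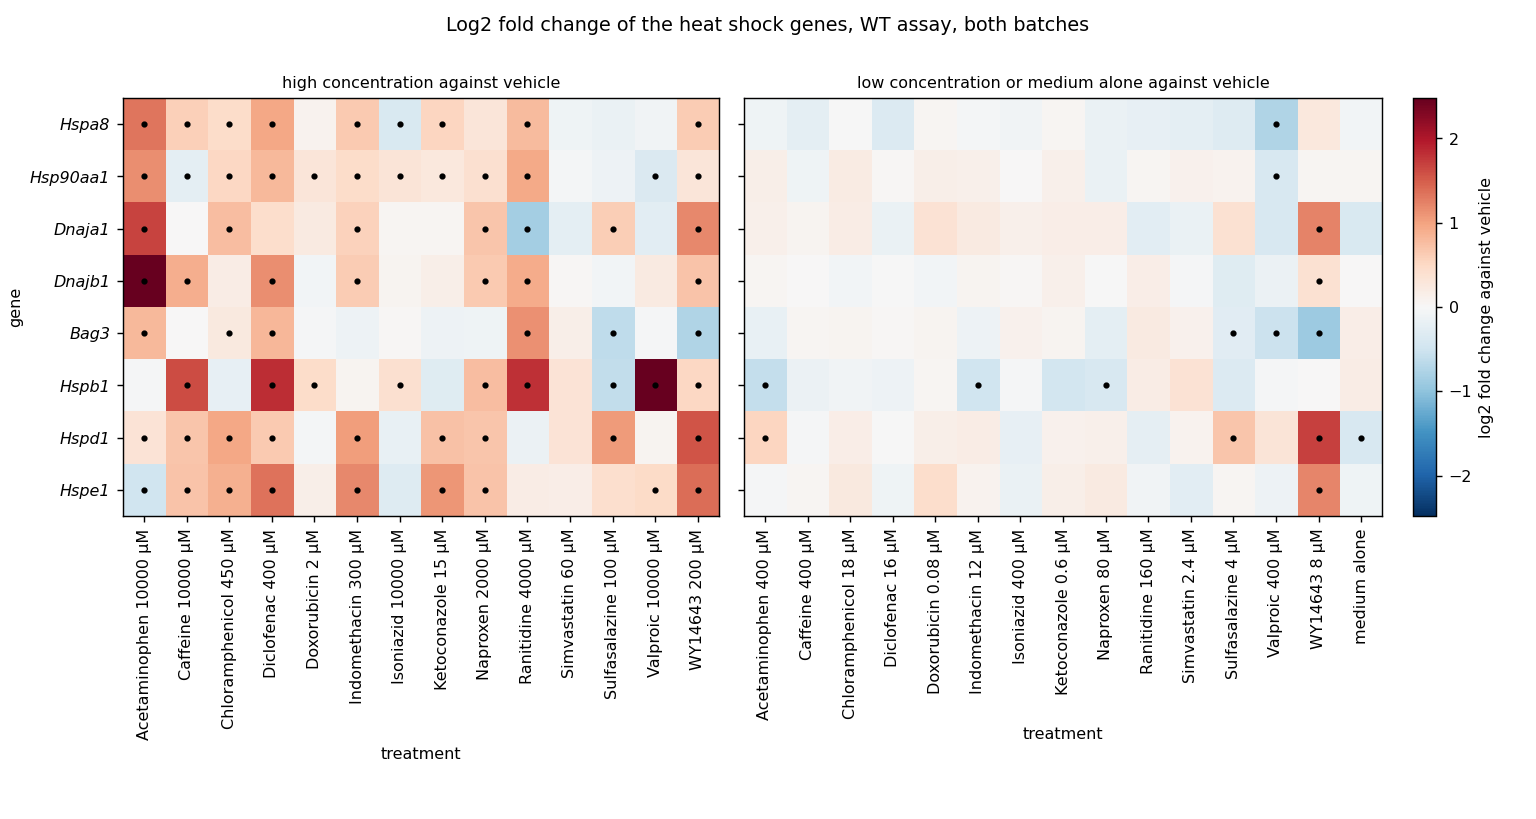
L2FC against vehicle of the 8 tested genes (rows) at the 14 high concentrations (left) and at the 14 low concentrations and in medium alone (right), WT assay, both batches fitted together; dots mark an adjusted p under 0.05. The left panel has 60 dots on red and 8 on blue cells and the right panel 6 and 9, and the dot of Hspd1 at 10000 µM acetaminophen is the one whose direction turns (to -0.08) when library totals alone are used.

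Hspa8 encodes Hsc70, the constitutive Hsp70 of the cytosol. It was higher than vehicle at 8 high concentrations and lower at 1. The vehicle wells held 4664, 5086 and 5898 CPM of Hspa8 in batch 1 and 3912 to 5364 with a median of 4584 CPM in batch 2. At 10000 µM acetaminophen the wells held 6177, 7063 and 9217 CPM in batch 1 and 10319, 10367 and 11432 CPM in batch 2. All 6 treated wells stood above the vehicle wells of their batch, and the L2FC of Hspa8 was 1.32 ± 0.14 (SE) (edgeR's quasi-likelihood test, adjusted p = 3.32e-16). At 400 µM diclofenac the levels were 9706, 9880 and 10092 CPM and 9384, 10986 and 12756 CPM in the batches. These wells too lay above all vehicle wells, with an L2FC of 0.96 ± 0.14 (adjusted p = 8.59e-10, edgeR's quasi-likelihood test). With library totals alone the L2FC of Hspa8 was 0.91 for acetaminophen and 1.10 for diclofenac, so the order of this pair depends on the scaling. Ranitidine (0.79 ± 0.14), indomethacin (0.65 ± 0.14), WY14643 (0.63 ± 0.14), caffeine (0.60 ± 0.14), ketoconazole (0.54 ± 0.14) and chloramphenicol (0.45 ± 0.14) raised Hspa8 by smaller L2FC. Among these 6, wells were clear of the vehicle wells in both batches for WY14643 and chloramphenicol only, and chloramphenicol lost its call without replicate 3 (0.39). In the ST assay, which reads the same Hspa8 probe in the same lysates, the CPM of WY14643 overlapped vehicle in both batches and those of chloramphenicol in batch 1, although both were called higher there after TMM scaling (L2FC 0.46 and 0.52). Before that scaling, the mean ST level of Hspa8 with WY14643 lay below that of vehicle, at 658 against 697 CPM in batch 1 and 585 against 609 CPM in batch 2, so its direction there depends on the scaling. Hspa8 was lower at 10000 µM isoniazid, by -0.38 ± 0.15, with wells that overlapped vehicle in both batches. That call was lost with library totals alone (-0.33), without the filter on low counts (-0.38) and with the vehicle of the same plate (-0.34), as well as without replicate 1 (-0.28) or replicate 3 (-0.40).

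Hspa1b, 1 of the stress-inducible Hsp70 genes, had no count in 172 wells and 63 counts in all, so it could not be tested. Of these 63, 29 fell in the wells of batch 1 and 24 in those of batch 2 at 10000 µM acetaminophen, where single wells held 0, 13 and 16 counts and 3, 8 and 13 counts. The highest count under any other condition was 2. Hspa1a had more counts. It is not a member but encodes almost the same protein, so the probes of the pair may share transcripts, and its split from Hspa1b is uncertain. Hspa1a was at 7.10 to 13.6 CPM in the vehicle wells of batch 1 and 14.6 to 21.6 CPM in those of batch 2, and at 265 to 310 CPM and 260 to 308 CPM at 10000 µM acetaminophen. No well overlapped, and its L2FC of 4.79 ± 0.24 was a 27.7-fold difference (adjusted p = 6.39e-45, edgeR's quasi-likelihood test). Hspa1a was also higher with valproic acid (2.03 ± 0.23) and caffeine (1.56 ± 0.23) at 10000 µM and with 400 µM diclofenac (1.38 ± 0.23), and lower with 15 µM ketoconazole (-1.13 ± 0.27). The diclofenac value rested on 1 well of batch 2 (196 CPM, against 19.1 and 13.0 CPM in the others), and without replicate 1 it was -0.12. In batch 2 the caffeine value likewise leaned on 1 well, and without replicate 1 it was 0.92 and still called.

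**Figure D2:**
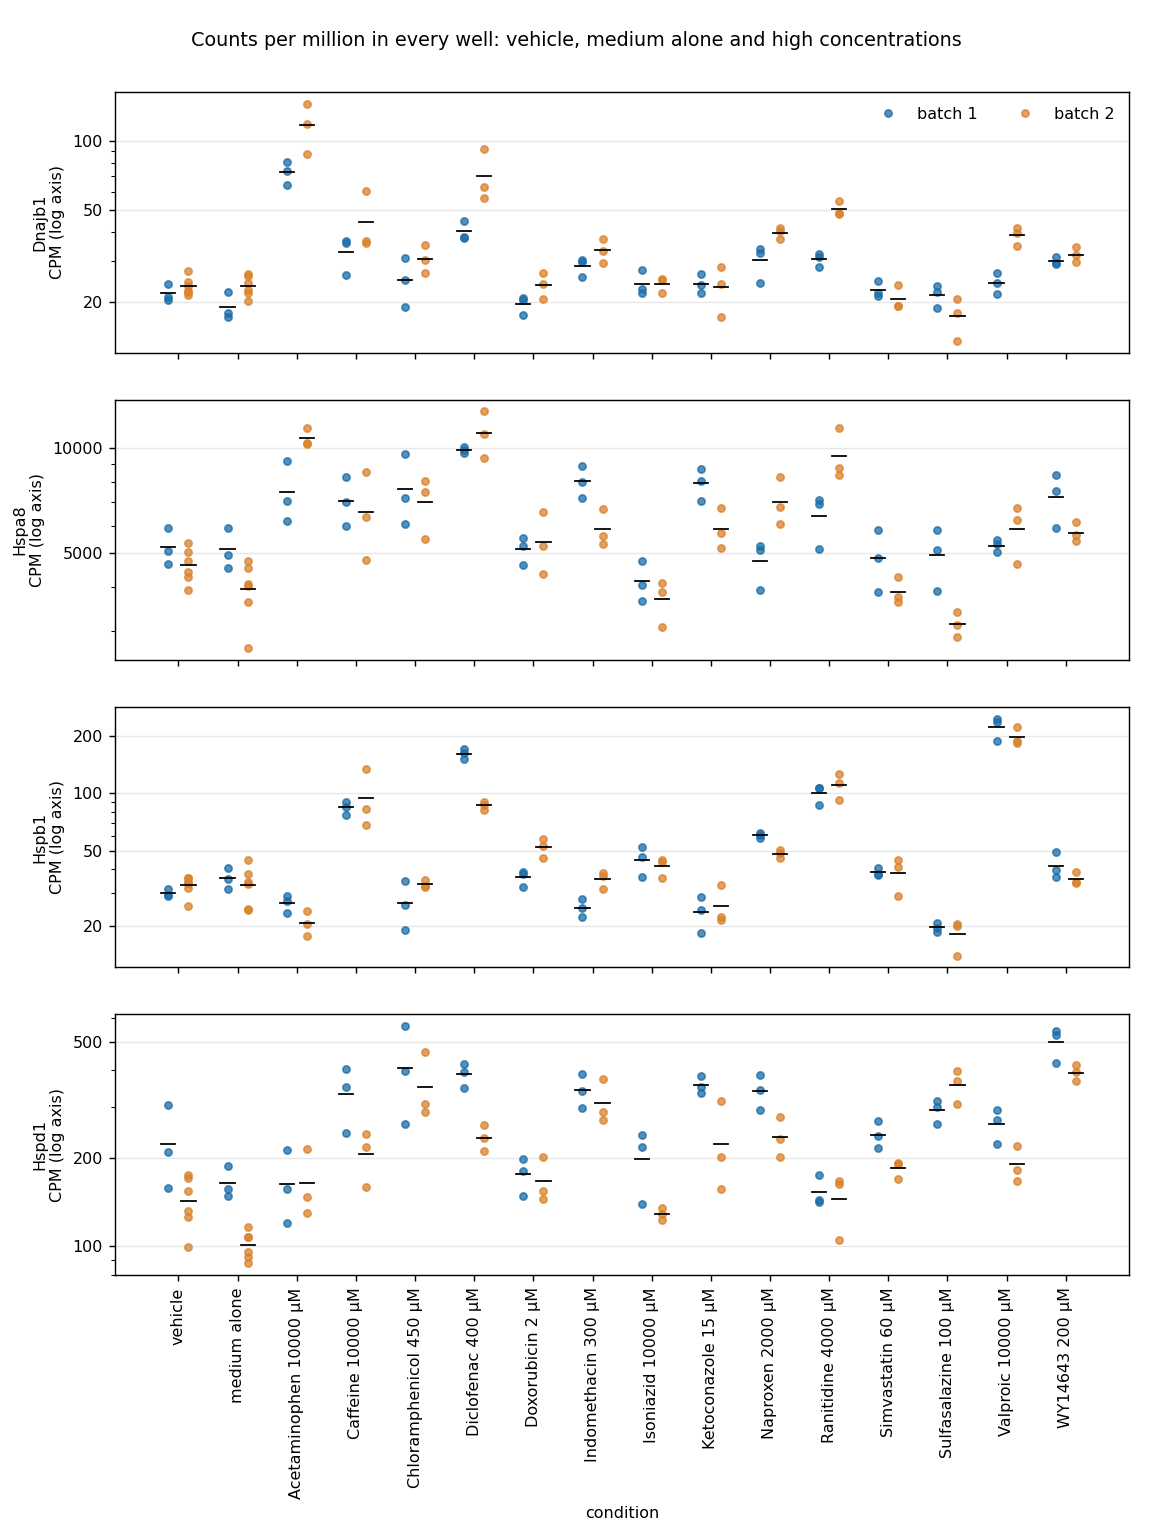
CPM in every well (log axis) of Dnajb1, Hspa8, Hspb1 and Hspd1, in vehicle, medium alone and the 14 high concentrations; blue is batch 1, orange is batch 2 and bars are batch means. All wells of 10000 µM acetaminophen lie above the vehicle wells of their batch for Dnajb1 and Hspa8, all wells of 10000 µM valproic acid do for Hspb1, and for Hspd1 the spread between wells of a group is wider.

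Dnajb1, the J-domain partner of Hsp70 known as Hsp40, was raised most by acetaminophen. The gene was at 20.4, 20.9 and 24.0 CPM in the vehicle wells of batch 1 and at 21.5 to 27.3 with a median of 22.8 CPM in those of batch 2. The wells of 10000 µM acetaminophen held 64.3, 74.1 and 80.7 CPM and 87.3, 119 and 144 CPM. Far above every vehicle well in both batches, they gave an L2FC of 2.48 ± 0.13, a 5.57-fold difference (adjusted p = 5.09e-43, edgeR's quasi-likelihood test). With library totals alone the value was 2.07. Diclofenac at 400 µM took the wells to 37.9, 38.3 and 44.8 CPM and 56.6, 63.0 and 91.5 CPM, with an L2FC of 1.15 ± 0.13 (adjusted p = 2.56e-15, edgeR's quasi-likelihood test). Ranitidine (0.92 ± 0.13), caffeine (0.90 ± 0.13), WY14643 (0.71 ± 0.13), naproxen (0.65 ± 0.13) and indomethacin (0.62 ± 0.13) also raised Dnajb1. For all 7 chemicals the call held in each batch alone and no treated well overlapped the vehicle wells of its batch. In the ST assay, which reads the same Dnajb1 probe in the same lysates, the CPM of WY14643 overlapped vehicle in both batches. Those of caffeine, naproxen and indomethacin overlapped it there in batch 1. At the other 7 high concentrations the L2FC lay between -0.06 for sulfasalazine and 0.21 for valproic acid and did not pass the test, although with library totals alone valproic acid (0.49) and chloramphenicol (0.32) were called higher.

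Dnaja1, another J-domain partner of Hsp70, which also serves in protein import into mitochondria, varied most from well to well, with an SD within groups of 0.51 on the log2 scale. The vehicle wells held 305, 428 and 497 CPM in batch 1 and 185 to 300.1 with a median of 253 CPM in batch 2. With 10000 µM acetaminophen the wells held 696, 794 and 827 CPM and 595, 699 and 821 CPM, all above vehicle, and the L2FC was 1.68 ± 0.25 (adjusted p = 3.82e-10, edgeR's quasi-likelihood test). WY14643 gave 1.19 ± 0.25 at 200 µM and 1.22 ± 0.25 at 8 µM, the only call of Dnaja1 at a low concentration. Ranitidine alone lowered it, with wells at 71.6, 107 and 154 CPM in batch 1 and 135, 157 and 320.4 CPM in batch 2. The batch 1 wells lay below vehicle and the batch 2 wells overlapped it, and the pooled L2FC was -0.84 ± 0.26 (adjusted p = 0.00255, edgeR's quasi-likelihood test), or -0.64 and no longer called without replicate 3. The remaining 4 calls were those of chloramphenicol (0.77), naproxen (0.68), sulfasalazine (0.61) and indomethacin (0.57). None of these 4 passed in each batch alone, and each was lost when at least 1 replicate was left out, with pooled values from 0.49 to 0.71. With the vehicle of the same plate the calls of naproxen (0.60), sulfasalazine (0.61) and indomethacin (0.59) were lost, the latter pair also with library totals alone (0.48 and 0.41) and without the filter on low counts (0.60 and 0.58).

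Bag3, a nucleotide exchange adaptor that links Hsp70 to small heat shock proteins and to autophagy, moved in both directions. In vehicle it was at 47.1, 49.0 and 49.8 CPM in batch 1 and at 48.3 to 67.7 with a median of 59.7 CPM in batch 2. Ranitidine at 4000 µM brought it to 91.4, 103 and 105 CPM and 119.7, 121 and 130.0 CPM, clear of vehicle, with an L2FC of 1.13 ± 0.10 (adjusted p = 3.48e-22, edgeR's quasi-likelihood test). Bag3 also rose with diclofenac (0.83 ± 0.10) and acetaminophen (0.80 ± 0.10). Before TMM scaling its mean log2 CPM was 6.68 with diclofenac, 6.11 with acetaminophen and 5.75 in vehicle, so the likeness of these L2FC depends on the scaling. With 200 µM WY14643 the wells fell to 26.6, 29.1 and 30.8 CPM and 22.5, 25.6 and 27.3 CPM, all below vehicle, for an L2FC of -0.74 ± 0.10 (adjusted p = 1.77e-10, edgeR's quasi-likelihood test). At 8 µM WY14643 the L2FC was -0.90 ± 0.11, and with 100 µM sulfasalazine it was -0.63 ± 0.10, again with every well below vehicle. The small rise with chloramphenicol (0.25 ± 0.10) was lost with RLE size factors (0.24), without the filter on low counts (0.26) and with the vehicle of the same plate (0.24), and when any 1 of the replicates was left out (0.18 to 0.33).

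Hsp90aa1, the inducible cytosolic Hsp90, passed the test at the largest number of high concentrations among the members, being higher at 10 and lower at 2. It had the smallest spread between wells (SD within groups 0.13 on the log2 scale) and mostly modest fold changes. Vehicle wells were at 677, 838 and 855 CPM in batch 1 and at 975 to 1145 with a median of 1058 CPM in batch 2. At 10000 µM acetaminophen they were at 1180, 1235 and 1268 CPM and 1622, 1821 and 2193 CPM, and no well overlapped. That L2FC of 1.15 ± 0.08 was 2.22-fold (adjusted p = 4.56e-32, edgeR's quasi-likelihood test). Ranitidine (0.93 ± 0.08) and diclofenac (0.80 ± 0.08) also raised it, and the other 7 rises were those of chloramphenicol (0.52), indomethacin (0.46), naproxen (0.40), isoniazid (0.32), WY14643 (0.31), doxorubicin (0.30) and ketoconazole (0.25). Hsp90aa1 was lower with caffeine (-0.25 ± 0.08) and with valproic acid (-0.37 ± 0.08). With library totals alone, the L2FC of Hsp90aa1 was 0.73 for acetaminophen, 0.85 for ranitidine and 0.94 for diclofenac, so their order depends on the scaling. Then too, the valproic acid value was -0.09 and that of 200 µM WY14643 0.07, and neither was then called, while doxorubicin lost its call without replicate 1 (0.23) and ketoconazole without replicate 2 (0.21).

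Hspb1, the small heat shock protein Hsp27, followed another order of chemicals. In vehicle it was at 28.8, 29.2 and 31.5 CPM in batch 1 and at 25.6 to 35.8 with a median of 33.9 CPM in batch 2. Valproic acid at 10000 µM brought the wells to 188, 238 and 247 CPM and 184, 188 and 223 CPM. Every one of these wells lay above vehicle, and the L2FC was 2.47 ± 0.13, or 5.53-fold (adjusted p = 2.51e-40, edgeR's quasi-likelihood test). Diclofenac gave 151, 163 and 172 CPM in batch 1 and 82.3, 87.2 and 90.0 CPM in batch 2. Both sets of wells were clear of vehicle, and the pooled L2FC was 1.83 ± 0.13 (adjusted p = 5.32e-28, edgeR's quasi-likelihood test). Ranitidine wells were at 87.4, 106 and 106 CPM and 92.1, 114 and 126 CPM (L2FC 1.81 ± 0.13) and caffeine wells at 77.4, 85.2 and 90.5 CPM and 68.4, 82.5 and 134 CPM (L2FC 1.62 ± 0.13), all above vehicle. Naproxen (0.77 ± 0.13), WY14643 (0.51 ± 0.14), doxorubicin (0.46 ± 0.14) and isoniazid (0.39 ± 0.14) raised it less. Of these, WY14643 was not called with library totals alone (0.28), doxorubicin not without replicate 1 (0.37) and isoniazid not without replicate 3 (0.26). Sulfasalazine at 100 µM lowered Hspb1 to 18.7, 19.6 and 20.7 CPM and 14.0, 19.9 and 20.5 CPM, below all vehicle wells (L2FC -0.62 ± 0.14, adjusted p = 0.000184, edgeR's quasi-likelihood test). With 10000 µM acetaminophen, which raised Hspa8, Dnajb1, Dnaja1 and Hsp90aa1, the L2FC of Hspb1 was -0.02 ± 0.14 and did not pass the test (adjusted p = 0.878, edgeR's quasi-likelihood test). Its wells were at 23.4, 27.1 and 28.8 CPM in batch 1, overlapping vehicle, and at 17.8, 20.5 and 24.2 CPM in batch 2, below it, and with library totals alone Hspb1 was called lower (-0.43).

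Hspd1 and Hspe1, whose products fold proteins inside mitochondria, were higher together at 7 high concentrations (caffeine, chloramphenicol, diclofenac, indomethacin, ketoconazole, naproxen and WY14643). Hspd1 was at 158, 210.4 and 304 CPM in the vehicle wells of batch 1 and at 99.7 to 175 with a median of 144 CPM in those of batch 2. With 200 µM WY14643 it was at 422, 528 and 542 CPM and 366, 393 and 415 CPM, above all vehicle wells, with an L2FC of 1.56 ± 0.15 (adjusted p = 5.40e-18, edgeR's quasi-likelihood test). With 8 µM it was at 391, 442 and 511 CPM and 372, 457 and 605 CPM, and the L2FC of 1.69 ± 0.15 was the largest of any member at a low concentration. Sulfasalazine (1.05 ± 0.15), indomethacin (1.04 ± 0.15) and chloramphenicol (0.97 ± 0.15), an inhibitor of mitochondrial protein synthesis, came next, each with batch 1 wells that overlapped vehicle and batch 2 wells above it. Hspd1 at 10000 µM acetaminophen was called at 0.34 ± 0.15, but its wells overlapped vehicle in both batches, and the value was -0.02 in batch 1 alone, -0.08 with library totals alone and -0.08 in the ST assay. The call was also lost without the filter on low counts (0.27), with only the groups compared in the fit (0.35) and without replicate 1 (0.35) or replicate 3 (0.29).

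Hspe1 was at 8.01, 12.1 and 12.6 CPM in vehicle in batch 1 and at 6.91 to 10.2 with a median of 9.07 CPM in batch 2 and rested on the fewest counts, a mean of 82.6 a well over all conditions. WY14643 at 200 µM brought it to 17.2, 19.6 and 20.8 CPM and 17.9, 22.9 and 27.5 CPM, and diclofenac to 20.9, 23.9 and 25.0 CPM and 25.9 to 34.7 CPM. Both sets of wells were clear of vehicle, with L2FC of 1.39 ± 0.17 and 1.34 ± 0.17 (adjusted p = 2.03e-12 and 3.09e-12, edgeR's quasi-likelihood test). Indomethacin (1.18 ± 0.17) and ketoconazole (1.09 ± 0.17) also raised it in each batch alone, without overlap of wells, while caffeine (0.70 ± 0.18), chloramphenicol (0.87 ± 0.18) and naproxen (0.71 ± 0.18) did not pass in batch 1 alone. With 10000 µM acetaminophen Hspe1 was at 4.15 CPM or less in batch 1, below vehicle, and at 5.40, 6.87 and 8.17 CPM in batch 2, where 2 wells lay below all vehicle wells and 1 among them. The pooled L2FC was -0.49 ± 0.20, which was no longer called without replicate 1 (-0.38) or replicate 3 (-0.36), and was -1.43 in batch 1 and 0.03 in batch 2 alone. This was the 1 high concentration at which Hspd1 was called higher and Hspe1 lower. The rise with valproic acid (0.48 ± 0.18) was lost with the vehicle of the same plate (0.38) and without replicate 2 or 3 (0.45 each).

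The chemicals differed in how many of the 8 members they moved, and each count is read against the share of all genes called in that treatment. Diclofenac raised 7 and lowered 0, where 36.0% of all genes were higher and 35.8% lower, and WY14643 at 200 µM raised 7 and lowered 1 (26.0% and 25.4%). Acetaminophen raised 6 and lowered 1 (38.8% and 40.1%). Chloramphenicol (16.1% and 17.2%), indomethacin (27.1% and 27.6%) and naproxen (27.6% and 26.2%) each raised 6 and lowered 0. Caffeine (34.6% and 31.6%) and ranitidine (32.3% and 33.9%) each raised 5 and lowered 1. Ketoconazole raised 4 and lowered 0 (25.0% and 26.3%). Doxorubicin raised 2 and lowered 0 (9.07% and 10.3%), and isoniazid (17.4% and 17.3%) and valproic acid (33.5% and 33.2%) each raised 2 and lowered 1. Sulfasalazine raised 2 and lowered 2 (21.3% and 19.6%), shares of the members near those of all genes. For simvastatin edgeR's quasi-likelihood test called 0 of the 8, with 2 higher at an unadjusted p under 0.05 and 0 called by DESeq2, where 11.4% of all genes were higher and 12.5% lower. All 8 members were called with 200 µM WY14643, and with diclofenac all but Dnaja1, all 7 of them in each batch alone and with wells clear of vehicle in both batches.

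At the low concentrations 6 of 112 pairs were higher and 8 lower than vehicle, against 4.91% and 4.50% of pairs over all genes. The 6 rises were 4 with 8 µM WY14643 (Hspd1, Dnaja1, Hspe1 and Dnajb1), and Hspd1 with 4 µM sulfasalazine (0.69 ± 0.15) and 400 µM acetaminophen (0.54 ± 0.15). At 8 µM WY14643, where Bag3 was the 1 member lower, 56.2% of all genes were called in either direction. Over all genes, 9.35% were higher with 4 µM sulfasalazine and 0.716% with 400 µM acetaminophen. Valproic acid at 400 µM lowered Hspa8 to 2548, 3144 and 4065 CPM in batch 1 and 2124, 2320 and 3138 CPM in batch 2, below every vehicle well of their batch (L2FC -0.75 ± 0.15, adjusted p = 1.53e-05, edgeR's quasi-likelihood test). It also lowered Bag3 (-0.54 ± 0.10) and Hsp90aa1 (-0.39 ± 0.08) and raised none, where 15.1% of all genes were higher and 14.0% lower. Hspb1 was lower with 400 µM acetaminophen (-0.59 ± 0.14), 12 µM indomethacin (-0.50 ± 0.14) and 80 µM naproxen (-0.40 ± 0.14), and Bag3 with 4 µM sulfasalazine (-0.29 ± 0.10). With the vehicle of the same plate in batch 2 the 3 Hspb1 calls were lost (-0.52, -0.44 and -0.40), as were those of Bag3 (-0.29), of Hspd1 with 400 µM acetaminophen (0.65) and of Dnajb1 with 8 µM WY14643 (0.33). When replicates were left out in turn these 6 calls were each lost at least once, with values of -0.24 to -0.64 for the lowered genes, 0.41 and 0.56 for Hspd1 and 0.33 for Dnajb1, and Hspd1 with 4 µM sulfasalazine was lost without replicate 2 (0.53). Dnajb1 with 8 µM WY14643 was also at 0.09 and not called with library totals alone. Hspd1 with 400 µM acetaminophen was not called with library totals alone (0.54), without the filter on low counts (0.52) or with only the groups compared (0.46). Without that filter, the calls of Bag3 with 4 µM sulfasalazine (-0.30) and of Hspb1 with 80 µM naproxen (-0.40) were lost too.

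Plates moved with some of these small differences. For the 6 chemicals without vehicle on their batch 1 plate, the median L2FC of Hspb1 over the low concentrations was -0.40, against -0.03 for the 8 chemicals on the plate with vehicle. For Hspd1 the medians were 0.36 and 0.04, for Dnaja1 0.20 and -0.04, and for Bag3 -0.16 and 0.05. In batch 2 alone, where both plates held vehicle, they were -0.41 and -0.13 for Hspb1 and 0.13 and 0.04 for Hspd1. There they were 0.20 and 0.15 for Dnaja1 and -0.15 and 0.02 for Bag3. With the vehicle of the same plate in batch 2 they were -0.34 and -0.02 for Hspb1 and 0.48 and -0.09 for Hspd1. For Dnaja1 they were then 0.20 and -0.12, and for Bag3 -0.16 and 0.10. The part of the plate in the single calls was not tested. Of the low concentrations, 8 had no member called by edgeR's quasi-likelihood test, with 5 pairs higher and 2 lower at an unadjusted p under 0.05 and 0 called by DESeq2. Medium without DMSO differed from vehicle in Hspd1 alone (-0.40 ± 0.14), where 5.10% of all genes were lower and 7.51% higher, and that call was lost without the filter on low counts (-0.41) and when any 1 of the replicates was left out (-0.32 to -0.43).

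High and low concentrations of one chemical came from the same plates, so their comparison does not rest on the vehicle wells. All high wells stood in even and all low wells in odd plate columns, so a difference between these columns and one between concentrations cannot be told apart. Of the 112 pairs of a member and a chemical, 52 were higher and 2 lower at the high than at the low concentration, against 20.1% and 20.7% of pairs over all genes. Without the mitochondrial pair the counts were 39 and 1 of 84. Diclofenac raised all 8 members from 16 to 400 µM, by 0.60 (Dnaja1) to 1.95 (Hspb1), although the Dnaja1 call was lost with DESeq2 and RLE size factors (0.56 each), without the filter on low counts (0.61), with only the groups compared in the fit (0.53) and without replicate 2 (0.41) or replicate 3 (0.56). For diclofenac 35.1% of all genes were higher at the high concentration. Acetaminophen (37.1% of all genes), indomethacin (20.5%) and naproxen (23.7%) each had 6 members higher at the high concentration, and caffeine (31.4%), ranitidine (28.9%) and valproic acid (32.8%) 5. Of the 6 with naproxen, Hspa8 and Hspe1 lost their call when any 1 of the replicates was left out (0.44 to 0.47 and 0.44 to 0.52), and Hspd1 without replicate 3 (0.45). Of the 5 with valproic acid, Dnajb1 (0.34 and 0.33) and Hspe1 (0.45 and 0.43) lost theirs without replicate 2 or replicate 3, and Dnajb1 also without the filter on low counts (0.34). Chloramphenicol had 4 members higher (9.82% of all genes), of which 0 passed in each batch alone and all but Hspd1 lost their call without replicate 1 (0.26 to 0.60). Ketoconazole had 3 (20.2%), of which Hspa8 (0.41) and Hspd1 (0.50) were lost without replicate 2, and isoniazid 2 (15.8%), Hsp90aa1 and Hspb1, both lost without replicate 3 (0.17 and 0.24). Doxorubicin (4.51%), simvastatin (12.0%) and sulfasalazine (7.57%) had 0 members higher by edgeR's quasi-likelihood test and 1 each at an unadjusted p under 0.05, and DESeq2 called 1 for doxorubicin and 0 for the other two. Hspb1 at 10000 against 400 µM valproic acid differed by 2.51 ± 0.15, the largest such difference, and Dnajb1 at 10000 against 400 µM acetaminophen by 2.43 ± 0.15. Against 400 µM acetaminophen, Hspb1 was higher at 10000 µM by 0.56 ± 0.16 although it did not differ detectably from vehicle there, and with library totals alone that difference was 0.18 and not called. The 2 members lower at the high concentration were Hspe1 with acetaminophen (-0.46 ± 0.22) and Bag3 with sulfasalazine (-0.34 ± 0.11). The Hspe1 call was lost without replicate 1 (-0.31) or replicate 3 (-0.46), and the value turned to 0.13 in batch 2 alone. The Bag3 call was lost when any 1 of the replicates was left out (-0.19 to -0.42) and without the filter on low counts (-0.33). With only the groups compared in the fit both were lost (-0.55 and -0.37). WY14643, with 2.52% of all genes higher at 200 than at 8 µM, had 2 such members, Hsp90aa1 (0.26 ± 0.08) and Hspb1 (0.51 ± 0.15), both lost when any 1 of the replicates was left out (0.17 to 0.31 and 0.40 to 0.57). That of Hsp90aa1 was also lost with DESeq2, RLE size factors and the highest probe alone (0.25 each). Its Hspd1 levels differed by -0.13 ± 0.17, its Hspe1 levels by 0.18 ± 0.19 and its Bag3 levels by 0.15 ± 0.11 between the concentrations, and these 3 did not pass the test.

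**Figure D3:**
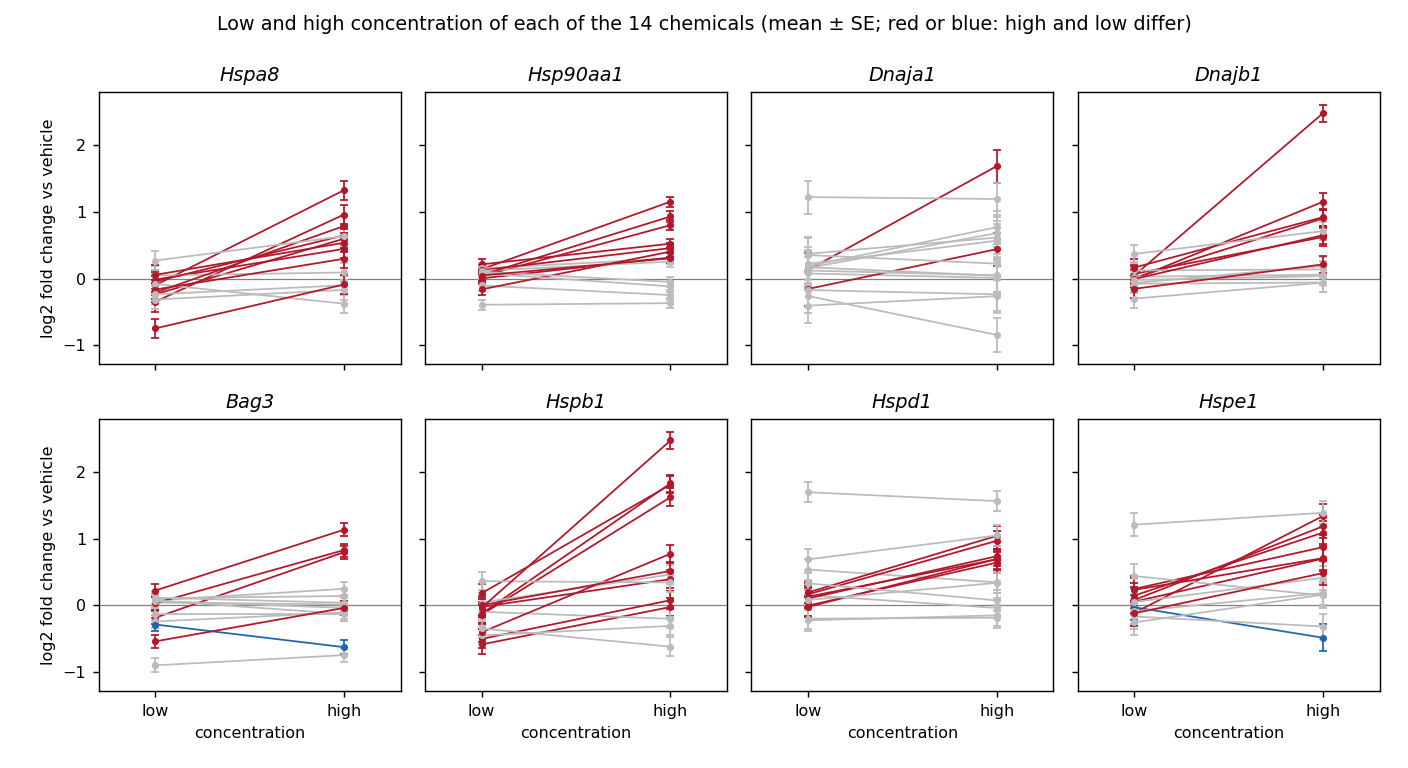
L2FC against vehicle (mean ± SE, both batches fitted together) at the low and the high concentration of each chemical, joined by a line, for the 8 tested genes; red and blue lines mark members that were higher or lower at the high than at the low concentration by the test. Most red lines start near 0, 52 of 112 lines are red and 2 blue, and those of WY14643 for Hspd1 and Hspe1 start and end high; Hspd1 with 10000 µM acetaminophen turns to -0.08 with library totals alone.

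Each batch came from 1 rat. A test of the interaction of batch and treatment called 4 of 224 pairs of a member and a treatment, against 2.44% over all genes. Each of the 4 was at a high concentration. Hspb1 with diclofenac had an L2FC of 2.39 in batch 1 and 1.28 in batch 2, both far above 0. Dnaja1 with ranitidine was at -1.73 and -0.22, Hspe1 with acetaminophen at -1.43 and 0.03, and Hspe1 with ranitidine at -0.56 and 0.69. Dnajb1 with acetaminophen was at 2.19 and 2.72, a difference that did not pass. The surrogate (ST) assay, a smaller set of probes run on the same lysates, covered 6 of the 8 members, not Dnaja1 and Hspe1. Of the 52 pairs called at high concentrations that it could test, 50 had the same sign in ST. There 45 were called with that sign and 0 with the opposite one. Of all ST pairs 57.7% were called in either direction. That share includes pairs that WT did not call, so it is no like background for the 52. Dnajb1 with acetaminophen had an ST L2FC of 2.65 and Hspb1 with valproic acid 2.84. Hsp90aa1 with ranitidine was at 0.47 in ST against 0.93 in WT, where a further probe was added. That probe averaged 6779 counts a well, against 299 in WT for the probe shared with ST. Bag3 and Hspb1 were read by different probes in WT and ST. The wells are the same lysates in both assays, so ST checks the measurement and adds no replicate. Deviations of single wells from their group mean were little alike between the assays for some members. Their r was -0.04 for Dnajb1, 0.20 for Hsp90aa1, 0.22 for Bag3, 0.35 for Hspd1, 0.45 for Hspa8 and 0.63 for Hspb1.

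**Figure D4:**
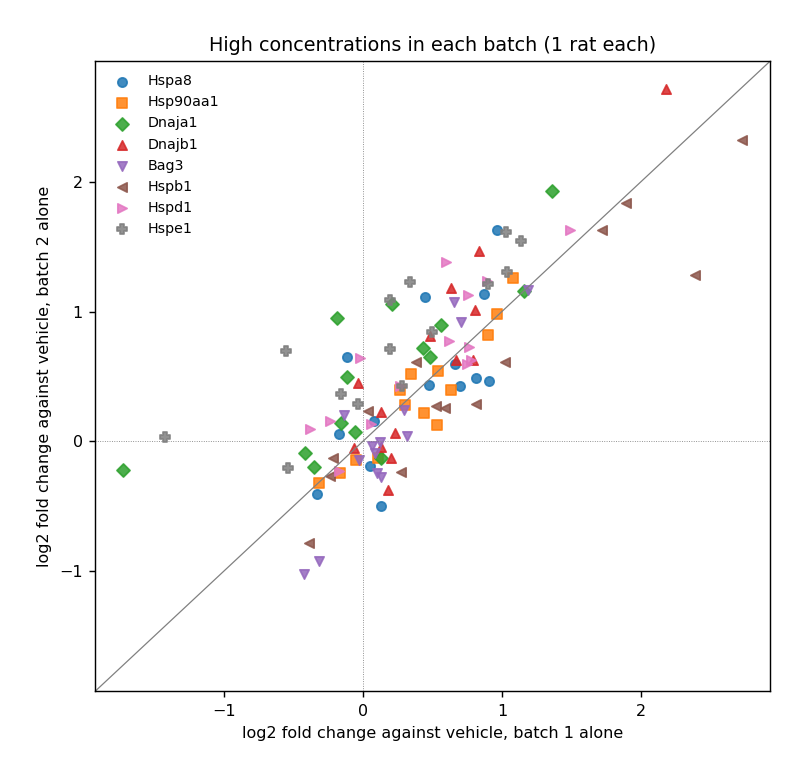
L2FC at the high concentrations in batch 1 alone (horizontal axis) and in batch 2 alone (vertical axis), 1 point for each of the 8 tested genes and 14 chemicals, with the line of equality. Points of Dnajb1 and Hspb1 reach past 2 on both axes, and the 4 named pairs for which the batches differed lie off the line; Hspd1 with 10000 µM acetaminophen, at -0.02 and 0.64, also turns with library totals alone.

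When the 14 high concentrations, vehicle and medium alone were ordered by mean log2 CPM, few neighbours were further apart than the larger of the well SD and the batch SD. Acetaminophen stood apart at the top for Dnajb1, valproic acid at the top for Hspb1 and diclofenac at the top for Hspe1. Ranitidine stood apart at the bottom for Dnaja1. For Hspb1 a further step lay between caffeine and naproxen, the next below it, and for Bag3 one lay between diclofenac and chloramphenicol, the next below it. Near the bottom, Bag3 had steps from indomethacin to sulfasalazine and from there to 200 µM WY14643, and Hspb1 had one from acetaminophen to sulfasalazine, the lowest. Within the order of Hspe1 caffeine and sulfasalazine were also apart. For Hspa8 no neighbours were apart, so the order of its levels from diclofenac down to isoniazid is not resolved step by step.

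Levels of the members across the 30 conditions were compared by Pearson's r of their batch-centred mean log2 CPM, as a description, since the conditions share batches, plates and library totals. Hspa8 and Dnajb1 were most alike (r = 0.82), followed by Hspd1 and Hspe1 (0.77) and by Hspa8 and Hsp90aa1 (0.72). Bag3 and Hspd1 ran most opposed (-0.53). Among all tested genes, the one most like Dnajb1 was Klhl21 (r = 0.95 over 30 conditions), the one most like Hspe1 was Dnaja3 (0.92), a J-domain protein of mitochondria, and the one most like Hsp90aa1 after Ctps1 (0.85) was Cct5 (0.83), a subunit of the cytosolic chaperonin TRiC. The genes most like Hspa8, Dnaja1, Bag3, Hspb1 and Hspd1 were Eif3j (0.84), Psmd13 (0.91), a proteasome subunit, Tlnrd1 (0.92), Chpf (0.92) and Mrpl30 (0.86), a protein of the mitochondrial ribosome.

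Other chaperones, taken from textbook lists, were counted in the same way, with the share of all genes called beside each count. Of 26 tested cytosolic chaperones and co-chaperones outside the member list, 19 rose and 2 fell with diclofenac (median L2FC 0.81, against 0.01 for all genes), where 36.0% of all genes rose and 35.8% fell. With ranitidine 16 rose and 0 fell (median 0.37), against 32.3% and 33.9%, and with acetaminophen 15 rose and 7 fell (0.51), against 38.8% and 40.1%. With 100 µM sulfasalazine 2 rose and 7 fell, where 21.3% of all genes rose and 19.6% fell, and with simvastatin 0 rose and 1 fell (11.4% and 12.5%). Hspa2, an Hsp70 family member, had an L2FC of 5.21 ± 0.30 with acetaminophen, from 0.910 to 1.09 CPM in the vehicle wells of batch 1 and 0.295 to 0.880 CPM in those of batch 2 to 16.9 to 18.7 CPM and 14.5 to 21.7 CPM. Dnajb6, a J-domain protein, rose by 2.84 ± 0.13 there, whereas Cryab, a small heat shock protein, fell with caffeine (-3.97 ± 0.22), from 50.0 to 64.0 CPM in batch 1 to 2.09 to 5.20 CPM. The tested stellate cell marker was also lower with caffeine (L2FC -2.47), and its part in the fall of Cryab was not tested. Of the 3 tested genes of heat shock factors and their binding protein, 2 rose and 0 fell with acetaminophen (38.8% and 40.1% of all genes). With ranitidine 1 rose and 2 fell (32.3% and 33.9%), and with diclofenac 2 rose and 1 fell (36.0% and 35.8%). Among them Hsf2 rose with acetaminophen (2.09 ± 0.14) and Hsf1 with ranitidine (1.05 ± 0.10). The adjusted p of Hspa2, Dnajb6, Cryab, Hsf2 and Hsf1 from edgeR's quasi-likelihood test were all far below the threshold, the largest being 3.70e-19 for Hsf1.

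The chaperones of the endoplasmic reticulum followed another order: all 8 tested genes rose with diclofenac (median L2FC 1.72), where 36.0% of all genes rose and 35.8% fell, and all 8 with indomethacin (1.75), where 27.1% rose and 27.6% fell. With isoniazid 6 fell and 0 rose (17.3% and 17.4% of all genes), and with acetaminophen 4 rose and 2 fell (38.8% and 40.1%). Creld2 rose by 2.84 ± 0.13 with diclofenac and Hspa5, the Hsp70 of this compartment known as BiP, by 2.74 ± 0.32 with indomethacin. Hyou1, a large Hsp70 relative of the same compartment, rose by 2.25 ± 0.16 with diclofenac, and Dnajc3, a J-domain protein there, by 2.23 ± 0.11 with indomethacin. Of 9 other mitochondrial chaperones and proteases, 7 rose and 0 fell with indomethacin (median 0.87), 6 rose and 2 fell with 200 µM WY14643 (0.58), where 26.0% of all genes rose and 25.4% fell, and 1 rose and 5 fell with acetaminophen (-0.37), where 40.1% of all genes fell. Clpx, which unfolds proteins for the protease Clpp, rose by 2.28 ± 0.12 with WY14643, Lonp1, another mitochondrial protease, rose by 1.59 ± 0.14 with diclofenac, and Clpp itself fell with acetaminophen (-2.21 ± 0.15). Trap1, the Hsp90 of mitochondria, fell with caffeine (-1.87 ± 0.11). The 5 tested subunits of TRiC, which folds actin and tubulin, all rose with diclofenac (median 0.68), where 36.0% of all genes rose, and with ketoconazole (0.52), where 25.0% rose, and caffeine lowered 3 and raised 1, where 31.6% of all genes fell and 34.6% rose. Cct6a (0.95 ± 0.11), Cct7 (0.82 ± 0.11) and Cct2 (0.54 ± 0.13) rose with diclofenac, and Cct5 (0.76 ± 0.056) with ketoconazole.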

How the data were processed

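Lysate of each well was run in the WT assay (22253 probes) and the ST assay (2654 probes). The authors aligned the reads with STAR 2.5.3a (rat build rn6, per the submitters' processing notes), allowing up to 2 mismatches, and deposited raw counts per probe and well. Groups, batch and plate came from the labels. Counts of probes to 1 symbol were added and CPM computed from well totals. The 28 treatments, vehicle and medium were fitted jointly with batch as a term by the quasi-likelihood test of edgeR 4.0.16 in R 4.3.3 (TMM, genes averaging 10 or more counts a well, Benjamini-Hochberg adjusted p under 0.05 over 10191 genes). High was compared with low concentrations, and batch with treatment by an interaction. The script was tested on simulated data. Alternatives were DESeq2 1.42.0 (the authors' tool), RLE factors, library totals, no filter, single batches, same-plate vehicle, pairwise fits, the highest probe alone, the ST assay, an absolute L2FC of at least 1 each replicate left out and, added after the data were seen, pairs of adjacent wells. Tables were read with the R package data.table (version 1.17.8) and summarised in Python 3.11.15 with pandas 2.3.3 and numpy 2.4.6. The genes and lists were chosen with earlier results of these data known. Member pairs past the test are named, and up to 4 genes of each other list, those with the largest absolute L2FC. Intervals cover well-to-well error only.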

Additional observations from a re-analysis of the deposited data

Results flagged for a closer look

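For 4 of the 224 pairs of a heat shock gene and a treatment the L2FC against vehicle differed between the batches by the interaction test of edgeR, each of them at a high concentration, while 2.44% of such pairs over all genes did, so the count is not above the general rate. Hspb1 with diclofenac was lower in batch 2 by -1.09 on the log2 scale (adjusted p = 0.000859, edgeR's quasi-likelihood test), although it rose in both batches. Hspe1 with acetaminophen was higher in batch 2 by 1.47 (adjusted p = 0.0104) and Hspe1 with ranitidine by 1.24 (adjusted p = 0.00926), both by edgeR's quasi-likelihood test. Dnaja1 with ranitidine was higher in batch 2 by 1.49 (adjusted p = 0.0333, edgeR's quasi-likelihood test). Without replicate 2 or 3 the Dnaja1 difference was 0.93 or 1.51 and not called. The Hspe1 differences were not called without replicate 1 (1.17 with either chemical), without replicate 3 for acetaminophen (1.28) or without replicate 2 for ranitidine (1.15). Each batch is 1 rat with its own library preparation and sequencing, and these cannot be told apart. Acetaminophen had no vehicle on its plate in batch 1, while diclofenac and ranitidine did. In the 16 groups of 6 wells (vehicle and medium in batch 2), 0 wells stood apart from the rest by Dixon's criterion, where chance gives about 1 in 20.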

How the results depend on the processing

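Of the 83 pairs of a member and a condition called against vehicle, 57 kept their call and direction in every fit on WT counts of both batches, including those with a replicate left out, as did 36 of the 54 between high and low. An absolute L2FC of at least 1 left 18 of 60 rises and 0 of 8 falls at high concentrations, 3 of 6 and 0 of 8 at low ones, 0 of 1 in medium, and 13 of 52 and 0 of 2 between high and low. Leaving out each replicate in turn gave 53 to 55 rises and 5 to 8 falls at high concentrations, 3 to 7 and 4 to 7 at low ones, 0 to 0 in medium, 39 to 45 and 0 to 2 between high and low, and 2 to 7 batch differences instead of 4. Batch 1 alone called 4 falls at high and 3 at low concentrations and 0 members in medium, and batch 2 alone 5 falls at low concentrations, 0 members in medium and 1 fall between high and low. Same-plate vehicle called 4 falls at low concentrations. Without the filter 0 members were called in medium and 1 fell between high and low, with only the groups compared 2 members in medium, and with library totals 7 fell between high and low, where 12 further pairs were called against vehicle. The direction turned for Hspd1 with 10000 µM acetaminophen (-0.083 with library totals, -0.019 in batch 1, -0.076 in ST), Hspe1 with acetaminophen in batch 2 (0.031, and 0.13 against the low concentration), Hspa8 with naproxen against its low concentration in batch 1 (-0.018), Bag3 with chloramphenicol in ST (-0.0064) and Hspa1a with diclofenac without replicate 1 (-0.12 to 1.77 over the replicates). Beyond these constructions the cause was not tested. Medium against same-plate vehicle was not run, as its wells lie on both plates. The labels carry no replicate numbers, but high and low wells of a chemical stood side by side. A replicate block of these adjacent wells, added after the data were seen, gave 52 rises and 2 falls between high and low and lost 2 of the 54 calls, both of Hspe1 (-0.47 with acetaminophen, 0.45 with naproxen). The deviations of adjacent wells over all tested genes correlated above 0.1 in 39 of 84 pairs (median r = 0.085, from -0.64 to 0.48). An r over all genes cannot tell whether position moved single members, and this was not tested. Hspe1 and Hspa1b rest on the fewest counts, and 1 rat a batch limits every p-value.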

Other observations

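Well-to-well deviations from the group mean on the log2 scale were not the same for all heat shock genes. Within groups the SD over all wells was 0.51 for Dnaja1, 0.32 for Hspe1, 0.29 for Hspd1 and 0.24 for Hspa8, against 0.13 for Hsp90aa1 and 0.16 for Bag3. The deviations of Dnaja1 ran with those of Hspe1 (Pearson's r = 0.70), Hspd1 (0.66) and Hspa8 (0.63) and against those of Hspb1 (-0.45), as a description over wells that share plates, depth and library totals. By plate column the mean deviation of Dnaja1 was 0.44 in column 3 and -0.35 in column 5 of batch 1 (11 wells each), and 0.35 in column 3 and -0.34 in column 7 of batch 2 (11 wells each). The part of the plate position in these deviations was not tested.

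Single wells of batch 2 stood high in Hspa1a, a near-identical relative of the almost uncounted Hspa1b, and these wells were picked after their values were seen. At 400 µM diclofenac the well in row E, column 2 held 196 CPM, and the other wells of that group held 19.1 and 13.0 CPM. Dnajb1 was at 91.5, 63.0 and 56.6 CPM in the same wells. With 10000 µM caffeine the well in row F, column 2 held 120.6 CPM of Hspa1a and the others 25.1 and 20.9 CPM, with 60.3, 36.8 and 36.1 CPM of Dnajb1. The ST libraries of the same lysates showed the same wells high in Hspa1a, at 857 CPM against 73.1 and 61.5 CPM for diclofenac and 490.2 CPM against 83.7 and 69.0 CPM for caffeine. Total counts of these WT libraries were alike, from 6251486 to 7266074 for diclofenac and from 7625010 to 7880275 for caffeine.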
